A study of Mus musculus with 2 samples.

Results

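The genes described here encode potassium, calcium, sodium and TRP channels and the subunits that accompany them. They were taken as every gene symbol that starts with Kcn or Cacn, with Scn followed by a digit, or with Trpc, Trpm or Trpv followed by a digit, and that had at least 20 unique molecular identifiers (UMIs, 1 per captured transcript) over all barcodes of both libraries. Of 162 matching symbols among 31054 features, 88 met this minimum, 49 had fewer UMIs and 25 had none. The members comprised 6 Kcnj, 7 Kcnk and 21 voltage-gated potassium channel genes, 6 calcium- or sodium-activated potassium channel genes, 10 potassium channel accessory genes, 6 calcium pore and 11 calcium accessory genes, 5 sodium pore and 3 sodium beta subunit genes, 4 Trpc, 5 Trpm and 1 Trpv gene, and 3 non-coding RNAs. Kcnh5 (21 UMIs) and Trpv2 (23 UMIs) lay just inside the minimum, and Cacnb4 (19 UMIs) and Kcnh7 (17 UMIs) just outside it. Genes well known in islets that were not members were Kcnj8 (7 UMIs), Kcnq1 (13 UMIs), Cacna1e (11 UMIs) and Trpv4 (4 UMIs).

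Electrical activity couples glucose to hormone release in islet cells. In β-cells, ATP made from glucose closes the KATP channel, a complex of Kcnj11 pores and Abcc8 (SUR1) subunits, the membrane depolarises, voltage-gated calcium channels open and calcium triggers exocytosis, while voltage-gated and calcium-activated potassium channels end each action potential. Tandem-pore potassium (Kcnk) channels set the resting potential, sodium channels shape the upstroke of the spike, and TRP channels add depolarising current, among them Trpm5, which opens on a rise in intracellular calcium.

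Islets came from 12-week-old male C57Bl6 mice, either Tg7, which overexpress miR-7a2 in β-cells, or Wild-type littermates, and gave 1 10x Genomics library per genotype. Per the study's methods, the mice of both groups carried a Cre recombinase under the rat insulin promoter and a floxed-stop tdTomato reporter, while how many mice went into each library was not stated there or in the labels. Because each genotype is 1 library, the ratios below compare these libraries and have no replicate check. Intervals are 95% intervals for counting error only, and no p-value was computed.

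The Tg7 library held 29931777 UMIs in 1123 barcodes and the Wild-type library 30829078 UMIs in 855 barcodes, with no barcode shared. After filters on UMIs (at least 1000), mitochondrial UMIs (at most 20%) and doublets (14 and 6), 992 Tg7 and 749 Wild-type cells were left. Cells were classed by the hormone that made up at least 5% of their UMIs and at least 80% of the UMIs of insulin, Gcg, Sst and Ppy together. This gave 588 Tg7 and 494 Wild-type insulin cells, 176 and 149 Gcg cells, 13 and 18 Sst cells and 19 and 9 Ppy cells, and left 196 and 79 cells in no class. The classes are ranges of a hormone score, and 25 Tg7 insulin cells but 1 Wild-type insulin cell had 80 to 85% purity. The miRNA was not measured in these counts. The tdTomato reporter was detected in 185 of 588 Tg7 and 259 of 494 Wild-type insulin cells, against 0 of 176 and 2 of 149 Gcg cells. Insulin took 29.4% of the UMIs of Tg7 insulin cells and 62.4% of those of Wild-type insulin cells, so levels are given as counts per 1000000 UMIs of genes other than 7 hormone genes (CPM). With all UMIs as the base, every Tg7 to Wild-type ratio in insulin cells would be multiplied by 1.73, or raised by 0.79 in log2.

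Markers of cell identity also differed between the insulin cells of the libraries. The non-hormone β-cell markers (Mafa, Ucn3, Slc2a2, Pdx1, Nkx6-1 and G6pc2) summed to 621 CPM in Tg7 and 4366 CPM in Wild-type. Of the β-cell hormone genes, Ins1 and Ins2 were lower in Tg7, but Iapp was higher, at 235256 and 146343 CPM. The α-cell markers other than Gcg summed to 5052 and 2895 CPM, mostly Ttr, and the δ-cell markers other than Sst to 326 and 123 CPM. Endothelial markers stood at 2.52 and 3.75, stellate markers at 0.869 and 0.117, acinar markers at 2.78 and 3.17, and macrophage markers at 33.6 and 75.7 CPM. Neuron markers summed to 352 and 445, and Schwann markers to 14.5 and 28.6 CPM with Sox10 and Cdh19 at 0 in both libraries. Duct markers summed to 427 and 36.3 CPM, nearly all Spp1, with Cftr at 0 in both. Gcg itself stood at 0.429% and 0.0495% of UMIs in insulin cells. The part of these differences in the channel results was not tested, although some values that bear on it are given below.

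The overexpressed miRNA binds transcripts through its seed, bases 2 to 8 of the mature strand, so members were searched for letters that pair with it. The mature strand from the Mir7-2 locus (RefSeq, GRCm38.p6, chr7:78888295-78888317, plus strand) is printed with its seed in capitals, followed by the members whose annotated 3′ UTR holds GTCTTCC followed by A and by 2 further members with GTCTTCC alone and a large ratio. Capitals mark the match, and positions of the members are on NCBIM37, the build of the transcript annotation used for the search, which is older than the mm10 build of the counts.
mmu-miR-7a-5p: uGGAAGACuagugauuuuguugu
Cacng7, chr7:3367363-3367384, plus strand: ccaaaacctccGTCTTCCattt
Kcnab2, chr4:151765358-151765379, minus strand: tctgagaggttGTCTTCCacac
Kcnf1, chr12:17181396-17181417, minus strand: gagctgcttgtGTCTTCCagcc
Kcnj2, chr11:110938032-110938053, plus strand: ttgtatctaaaGTCTTCCtatt
Kcnmb4, chr10:115900326-115900347, minus strand: gaggtaaccaaGTCTTCCttca

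Of the 81 members with an annotated 3′ UTR, 13 (16.0%) held GTCTTCC on the transcript strand, against 13.5% of 12687 genes with the same UMI minimum, and 3 (3.70%) held GTCTTCCA, against 4.0%. The other 8 members with a match included Kcnab3, Kcnd3, Kcnmb2, Scn2b, Trpc4ap and Trpm7. In insulin cells 11 of the 13 could be compared. Of these 4 were at least 2-fold higher in the Tg7 library, among them Cacng7, Kcnj2 and Kcnmb4, while Kcnf1 was at least 2-fold lower, and the other 6 lay between. Of the 63 comparable members with a 3′ UTR and no match, 25 were higher and 7 lower. Among all 12758 genes measured in insulin cells, 9.71% were at least 2-fold higher and 5.83% at least 2-fold lower. A match is a description of the letters and not evidence of binding.

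In insulin cells, 79 members had at least 20 UMIs over both libraries. Of these 29 were at least 2-fold higher in Tg7, or 36.7%, where 9.71% of all 12758 genes measured were, and 9 were at least 2-fold lower, or 11.4%, where 5.83% of all genes were. These shares of all genes are also the background for the counts by family below. The median log2 ratio of the members was 0.52 and that of all genes was -0.019. The counting interval lay above 1 for 42 members and below 1 for 15. The members lean towards low counts, where ratios past 2-fold are frequent, so the shares were also set side by side at like counts. With 20 to under 50 UMIs 68.8% of members and 29.9% of all genes were 2-fold higher, with 50 to under 200 UMIs 44.4% and 17.3%, with 200 to under 1000 UMIs 21.1% and 5.03%, and with 1000 or more UMIs 11.8% and 3.68%. The shares 2-fold lower, in the same order, were 12.5% and 9.78%, 14.8% and 7.76%, 10.5% and 5.12%, and 5.88% and 4.02%. These lower shares rest on 2, 4, 2 and 1 members. On the all-UMI scale 51 members were 2-fold higher and 6 lower, where 32.3% and 1.79% of the 12758 genes were. Of the 23 members below 1, 13 turned to above 1 on that scale.

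**Figure D1:**
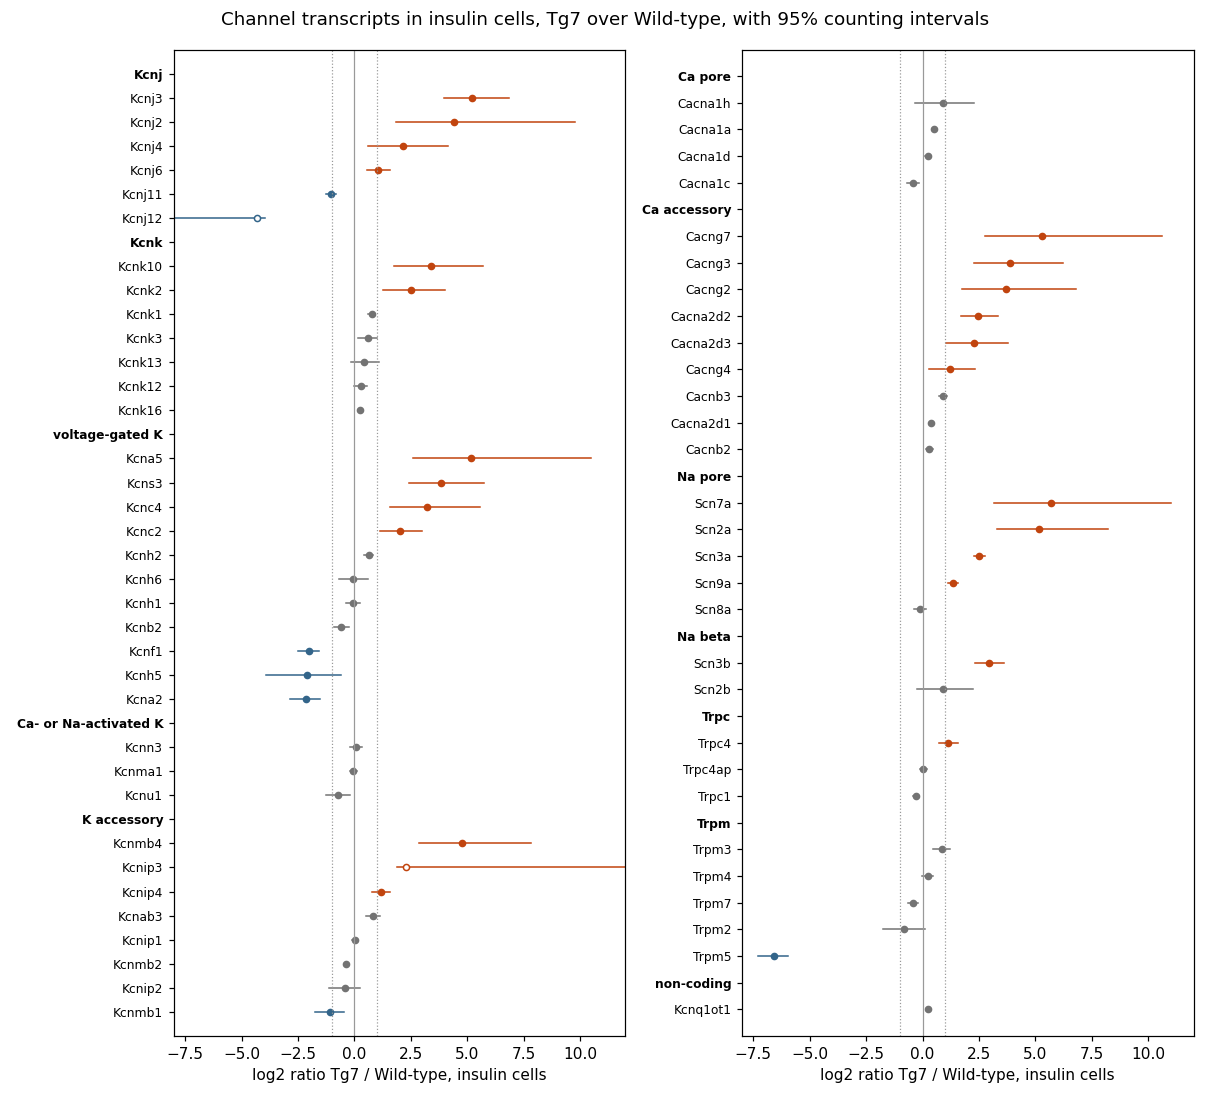
Tg7 to Wild-type ratio in insulin cells of 64 of the 79 measured channel genes, those described in the text, on a log2 axis, grouped by role, with 95% counting intervals and dotted lines at 2-fold. Orange points are at least 2-fold higher in Tg7, blue points at least 2-fold lower, and grey points between. Open points use a floor of 3 UMIs for a gene with 0 UMIs in 1 library. The 4 sodium pore genes Scn7a, Scn2a, Scn3a and Scn9a lie to the right of 2-fold and Trpm5 lies farthest to the left.

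Trpm5, the calcium-activated cation channel, had the lowest ratio of the members with UMIs in both libraries. It was counted at 20 UMIs in the Tg7 library against 1425 in the Wild-type library, in insulin cells, or 1.74 and 167 CPM, which is 96.2-fold lower in Tg7 (62.0 to 158). In Wild-type it was detected in 404 of 494 insulin cells, with up to 17 UMIs in 1 cell, and in Tg7 in 20 of 588, never with more than 1 UMI. It was also the Trp gene that set the sum of its family. The 5 Trpm genes together stood at 84.1 CPM in Tg7 and 249 CPM in Wild-type (ratio 0.337, 0.312 to 0.364). Trpm3, a steroid-activated cation channel, was at 17.6 and 9.85 CPM (ratio 1.79, 1.38 to 2.34). Trpm4, the close relative of Trpm5, was at 31.3 and 26.7 CPM (1.17, 0.988 to 1.39). Trpm7, which joins a channel to a kinase, was at 31.8 and 42.8 CPM (0.743, 0.641 to 0.861, and above 1 on the all-UMI scale), and Trpm2 had 19 and 25 UMIs (0.563, 0.293 to 1.06). None of these 4 was past 2-fold, but Trpm3 (3.09) and Trpm4 (2.02) were on the all-UMI scale. Outside insulin cells Trpm5 had 0.642 CPM in Tg7 Gcg cells and 0 UMIs in Wild-type Gcg cells and in the Sst and Ppy cells of both libraries.

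Among the Trpc genes, Trpc4 was at 18.1 CPM in Tg7 and 8.21 CPM in Wild-type insulin cells (2.20, 1.67 to 2.93), and had 0 UMIs in Gcg, Sst and Ppy cells of both libraries. Trpc1 was at 81.6 and 99.2 CPM (0.822, 0.749 to 0.903, and above 1 on the all-UMI scale). Trpc4ap, a protein that associates with a Trpc channel and is no channel itself, was at 67.1 and 65.8 CPM. Trpc5 was counted at 16 UMIs in the Tg7 library against 1 in the Wild-type, and Trpv2 5 and 0, both under the minimum for a ratio.

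The sodium channel pores were higher in Tg7 insulin cells as a group. The 5 pore genes summed to 212 CPM in Tg7 and 72.9 CPM in Wild-type (ratio 2.91, 2.67 to 3.19), and 4 of the 5 were past 2-fold. Scn3a, which encodes Nav1.3, had 1196 UMIs in the Tg7 library and 156 in the Wild-type library, or 104 and 18.3 CPM (5.68, 4.80 to 6.76). Scn9a, which encodes Nav1.7, had 793 and 229 UMIs, or 68.9 and 26.8 CPM (2.57, 2.21 to 2.99). These were the pores with the most UMIs, and both intervals lay wholly above 2. Scn2a, which encodes Nav1.2, had 97 UMIs in 81 Tg7 cells and 2 UMIs in 2 Wild-type cells (35.9, 9.68 to 301). Scn7a, which encodes the atypical sodium-sensing channel Nax, had 69 UMIs in 47 Tg7 cells and 1 in Wild-type (51.1, 8.88 to 2048). Scn8a, which encodes Nav1.6, was at 25.2 and 27.4 CPM (0.918, 0.770 to 1.10, and above 1 on the all-UMI scale). The beta subunits tune gating and surface level of the pores. Scn3b was counted at 258 UMIs in the Tg7 library against 25 in the Wild-type (7.65, 5.06 to 12.0) and Scn2b at 23 against 9 (1.89, 0.844 to 4.65).

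The inward rectifiers split in both directions, and none of the 6 lay within 2-fold. Kcnj11, the pore of the KATP channel, was counted at 302 UMIs in the Tg7 library against 463 in the Wild-type library, in insulin cells, or 26.2 and 54.3 CPM (0.483, 0.417 to 0.560). On the all-UMI scale its ratio was 0.834, which is not past 2-fold. Its partner Abcc8 was at 269 and 469 CPM (0.574, 0.548 to 0.602) and had a UMI in 434 of the 588 cells of Tg7 and in 489 of the 494 of Wild-type. The Abcc8 ratio would be 1.73 times as large on the all-UMI scale, which is close to 1. Kcnj12, a strong inward rectifier, had 0 UMIs in Tg7 and 45 UMIs in 40 Wild-type insulin cells, and was at least 20.2-fold lower in Tg7 against a floor of 3 UMIs over the class. Kcnj3 and Kcnj6, the subunits GIRK1 and GIRK2 of G protein-gated channels, were both higher. Kcnj3 had 249 UMIs in 170 Tg7 cells and 5 UMIs in 5 Wild-type cells (36.9, 15.6 to 115), and Kcnj6 120 and 43 UMIs (2.07, 1.45 to 3.002, with 1.404 as the lowest value over 9 alternatives). Kcnj2 had 29 UMIs and 1 UMI (21.5, 3.56 to 878) and Kcnj4 24 and 4 (4.45, 1.53 to 17.6). Summed, the family stood at 62.9 and 65.8 CPM, a ratio of 0.956 (0.855 to 1.07) that turned above 1 on the all-UMI scale.

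Of the 7 tandem-pore (Kcnk) potassium channel genes, Kcnk10 and Kcnk2, which encode the mechanically gated channels TREK-2 and TREK-1, were past 2-fold. On the all-UMI scale all 7 were, among them Kcnk16 (2.05), Kcnk13 (2.34) and Kcnk3 (2.58). Kcnk10 was counted at 42 UMIs in the Tg7 library against 3 in the Wild-type (10.4, 3.31 to 52.3) and Kcnk2 46 and 6 (5.68, 2.42 to 16.3). Kcnk16, which encodes the islet channel TALK-1, was at 287 and 241 CPM (1.19, 1.13 to 1.26), and it was detected in 547 of 588 and 461 of 494 cells. Kcnk1 was at 89.99 and 53.1 CPM (1.69, 1.52 to 1.90), Kcnk12 at 24.6 and 20.3 and Kcnk13 at 5.73 and 4.22. Kcnk3, which encodes TASK-1, was at 13.1 and 8.79 CPM in insulin cells (1.49, 1.12 to 1.99), but the ratio turned to 0.561 when cells needed 95% hormone purity. In Gcg cells Kcnk3 was at 294 and 344 CPM.

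Of the 19 measured voltage-gated potassium channel genes 7 were 2-fold higher, 4 lower and 8 between, and their UMIs summed to 281 and 268 CPM (1.05, 0.993 to 1.11). The higher ones included Kcna5 (48 UMIs and 1 UMI, 35.6, 6.09 to 1434), the silent subunit Kcns3 (77 and 4, 14.3, 5.35 to 53.7), Kcnc4 (38 and 3, 9.38, 2.98 to 47.5) and Kcnc2 (71 and 13, 4.05, 2.22 to 7.97). The lower ones included Kcnf1, Kcna2 and Kcnh5. Kcnf1, a silent subunit that modifies other voltage-gated pores, was counted at 52 UMIs in the Tg7 library against 157 in the Wild-type (4.08-fold lower, 2.96 to 5.69). Kcna2 had 26 and 86 UMIs (4.46-fold lower, 2.85 to 7.21) and Kcnh5 5 and 16 (4.32-fold lower, 1.51 to 15.1). Kcnb2, a delayed rectifier, was at 13.8 and 20.6 CPM (0.669, 0.537 to 0.834, and above 1 on the all-UMI scale). Kcnh2 and Kcnh6, both of the ERG family that repolarises islet cells, were at 53.5 and 34.6 (1.55, 1.34 to 1.78) and at 4.43 and 4.57 CPM. Kcnd3 had 7 UMIs and 0, too few for a ratio.

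Scaled to non-hormone UMIs, none of the 6 calcium- or sodium-activated potassium channel genes was past 2-fold. Kcnma1, the large-conductance BK channel, was at 67.5 and 70.2 CPM (0.961, 0.863 to 1.07), the small-conductance channel gene Kcnn3 at 24.3 and 23.4 (1.04, 0.862 to 1.25) and Kcnu1 at 5.13 and 8.44 (0.607, 0.423 to 0.869). Kcnma1 and Kcnu1 turned above 1 on the all-UMI scale. The beta subunits of BK differed among themselves. Kcnmb4 was counted at 73 UMIs in the Tg7 library against 2 in the Wild-type (27.0, 7.22 to 228), Kcnmb2 1345 and 1274 (0.782, 0.724 to 0.845, and 1.35 on the all-UMI scale) and Kcnmb1 35 and 55 (0.471, 0.299 to 0.733, and 0.814 on the all-UMI scale). The non-coding Kcnmb4os2 was counted at 18 UMIs in the Tg7 library against 0 in the Wild-type. The use of strand in counting was not stated in the labels or methods, so the split of reads between Kcnmb4 and its antisense partner is uncertain, as it is between Kcnab3 and Kcnab3os and between Kcnq1 and Kcnq1ot1. Of the Kv4-associated KChIP genes, Kcnip1 was at 88.1 and 85.9 CPM (1.02, 0.931 to 1.13), Kcnip4 at 19.98 and 8.91 (2.24, 1.72 to 2.95) and Kcnip2 at 3.39 and 4.57 (0.741, 0.463 to 1.19, and above 1 on the all-UMI scale). Kcnip3 was counted at 20 UMIs in the Tg7 library against 0 in the Wild-type, at least 4.94-fold higher.

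Of the 6 calcium channel pores 1 had too few UMIs for a ratio, and the other 5 lay within 2-fold. On the all-UMI scale Cacna1a (2.48), Cacna1d (2.06) and Cacna1h (3.20) passed it. The L-type Cacna1d was at 102 and 85.2 CPM in Tg7 and Wild-type insulin cells (1.19, 1.09 to 1.31), and the L-type Cacna1c at 20.5 and 27.7 (0.741, 0.616 to 0.891, and 1.28 on the all-UMI scale). The P/Q-type Cacna1a was at 143 and 99.7 CPM (1.43, 1.32 to 1.56) and the T-type Cacna1h had 20 and 8 UMIs (1.85, 0.781 to 4.86). The 6 pore genes summed to 274 and 218 CPM (1.25, 1.18 to 1.33). The accessory genes were higher by more, at 417 and 289 CPM in sum (1.44, 1.37 to 1.52), and 6 of the 10 measured were past 2-fold. Those with the most UMIs were not among the 6, but Cacna2d1 (2.26), Cacnb2 (2.13) and Cacnb3 (3.23) passed 2-fold on the all-UMI scale. Cacna2d1, an α2δ subunit that brings pores to the membrane, was at 212 and 162 CPM (1.31, 1.22 to 1.40), the β subunit Cacnb2 at 98.4 and 79.8 (1.23, 1.12 to 1.36) and Cacnb3 at 72.5 and 38.8 (1.87, 1.64 to 2.13). Past 2-fold were Cacna2d2 (112 and 15 UMIs, 5.53, 3.21 to 10.2), Cacna2d3 (39 and 6, 4.82, 2.02 to 13.9), and 4 γ-subunit genes of the group that also accompanies AMPA receptors. The latter were Cacng7 (53 UMIs and 1 UMI, 39.3, 6.75 to 1580), Cacng3 (60 and 3, 14.8, 4.83 to 73.9), Cacng2 (35 and 2, 13.0, 3.33 to 111, with a lowest value of 2.74 over 9 alternatives) and Cacng4 (38 and 12, 2.35, 1.20 to 4.93).

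Depth per cell differed over all UMIs, with a median of 29573.5 in Tg7 and 49382 in Wild-type insulin cells. Over non-hormone UMIs it differed less, with medians of 15847 and 14822. The share of cells with a UMI was also taken after each cell was thinned to 2000 non-hormone UMIs, leaving out 12 Tg7 and 4 Wild-type insulin cells below that depth. Trpm5 was then seen in 1 of 576 Tg7 cells (0.174%) and 138 of 490 Wild-type cells (28.2%, 24.2 to 32.4%), where the shares without thinning were 3.40% and 81.8%. Kcnj3 was seen in 5.21% (3.54 to 7.35%) and in 0 of 490 cells, which allows a share of cells with a thinned UMI of up to 0.612% (3 cells; the Clopper-Pearson limit is 0.750%), and without thinning in 28.9% and 1.01%. Scn3a was seen in 16.3% (13.4 to 19.6%) and 5.51% (3.66 to 7.92%), without thinning in 71.3% and 23.3%, and Kcnj11 in 3.99% (2.55 to 5.93%) and 10% (7.49 to 13.0%), without thinning in 30.6% and 56.7%. For these 4 genes the thinned intervals of the libraries do not overlap. For Kcnk16 they do, at 38.9% and 34.5%, where the unthinned shares were 93.0% and 93.3%. Cells with endothelial or macrophage markers, which should lack these genes, served as background, although their make-up differed, with 9 endothelial and 23 macrophage cells in Tg7 and 23 and 8 in Wild-type before thinning. In 31 such Tg7 cells and 30 such Wild-type cells, of median depth 4750.5 and 7914 UMIs, Trpm5, Kcnj3, Scn3a, Kcnj11 and Kcnk16 had 0 thinned UMIs, which allows shares of up to 9.68% and 10% by the limit of 3 cells and 11.2% and 11.6% by Clopper-Pearson. Thinned shares under these limits, among them those of Kcnj3 and Kcnj11 in Tg7 and of Scn3a in Wild-type, cannot be told from background with this few cells.

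**Figure D2:**
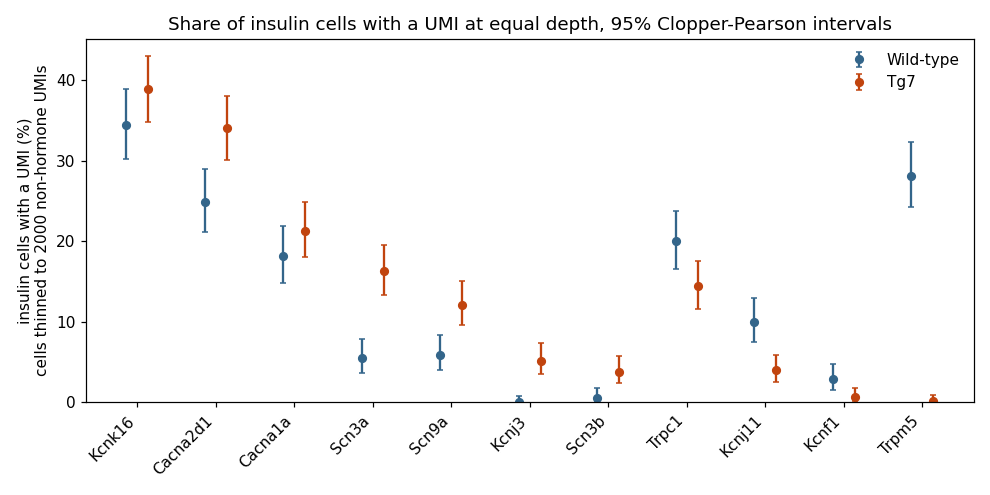
Share of insulin cells with at least 1 UMI of 11 channel genes, in percent, after each cell was thinned to 2000 non-hormone UMIs (576 Tg7 and 490 Wild-type cells), with 95% Clopper-Pearson intervals. Trpm5 stands at 28.2% in Wild-type and 0.174% in Tg7, Scn3a at 5.51% and 16.3%, and Kcnk16 at 34.5% and 38.9%.

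Gcg cells held fewer UMIs, and there 35 members had at least 20 UMIs, of which 1 was at least 2-fold higher in Tg7 (2.86%, against 1.85% of 9193 genes) and 1 at least 2-fold lower (2.86%, against 3.95%), and the median log2 ratio was -0.23 for members and -0.081 for all genes. The higher one was Scn3b, with 19 and 9 UMIs (2.03, 0.874 to 5.09), and the lower one Scn9a, with 25 and 49 UMIs, or 16.1 and 32.8 CPM (0.490, 0.290 to 0.808). Kcnj11 had 97 and 65 UMIs, or 62.3 and 43.5 CPM (1.43, 1.04 to 1.99). Among the next highest were Kcnc4 (1.59, 0.921 to 2.79), Kcnj3 (1.26, 0.777 to 2.06) and Kcnh2 (1.15, 0.718 to 1.86), all with intervals that include 1. At the low end were Cacna1a (0.516, 0.392 to 0.675), Kcnmb2 (0.532, 0.377 to 0.745), Scn8a (0.576, 0.332 to 0.979) and Cacna1c (0.582, 0.316 to 1.04). The summed calcium pores stood at 134 CPM in Tg7 and 210 CPM in Wild-type Gcg cells (0.639, 0.534 to 0.764), and the summed sodium pores at 75.2 and 106 (0.706, 0.552 to 0.903). On the all-UMI scale the Gcg ratios were 0.901 times as large, and 6 of the 14 members above 1 turned below 1.

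All 35 of these members could be set beside their ratio in insulin cells. There 10 of the 35 were at least 2-fold higher in Tg7 (28.6%, against 4.69% of 9144 genes measured in both classes). Only 1 was at least 2-fold lower (2.86%, against 4.10%). The log2 ratio was higher in insulin than in Gcg cells for 31 of 35 members (88.6%), with a median difference of 0.64, and for 53.5% of 9144 genes, with a median difference of 0.045. The difference was past 2-fold for 11 members (31.4%, with Kcnip3 at the floor of 3 UMIs) and for 12.9% of the genes, and Kcnj11 was the 1 of the 11 that was lower in insulin cells, with log2 ratios of -1.05 in insulin and 0.52 in Gcg cells. The widest were Kcnj3 (5.21 and 0.33), Scn3a (2.51 and -0.26), Kcnc4 (3.23 and 0.67) and Scn9a (1.36 and -1.03). With 1 library per genotype these differences were not tested. On the all-UMI scale, where insulin ratios shift up and Gcg ratios down, 34 of the 35 differences were above 0, and 29 members (82.9%) and 49.5% of the genes were past 2-fold. The Kcnj11 difference then went from -1.57 to -0.63 and was no longer past 2-fold.

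**Figure D3:**
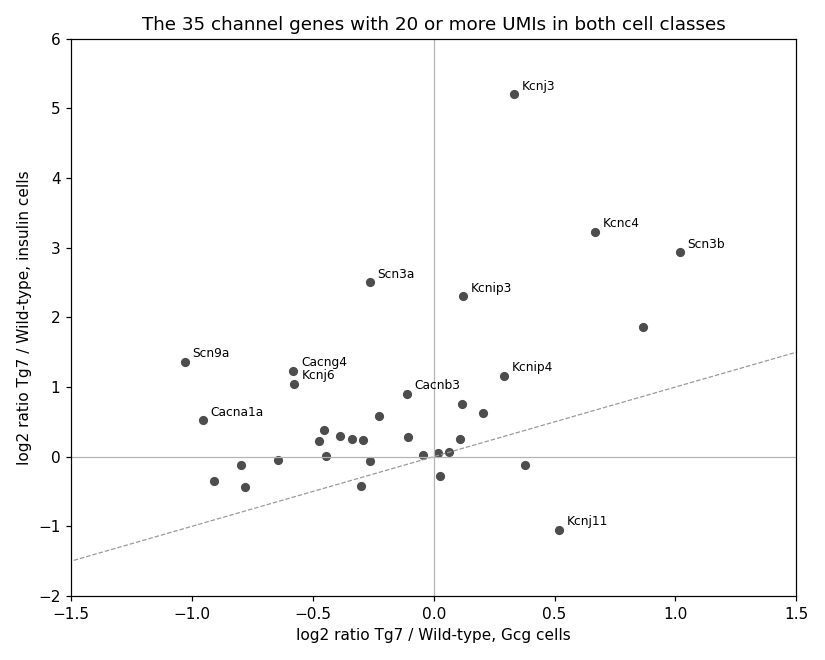
Tg7 to Wild-type log2 ratio of 35 channel genes in Gcg cells (horizontal axis) and in insulin cells (vertical axis), with a dashed line where both are equal. The axes differ in scale, and Kcnip3 is drawn with a floor of 3 UMIs for Wild-type insulin cells. Of the 35 points 31 lie above the line, and Kcnj11 lies below it.

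The levels by cell class place these ratios. In Wild-type, Scn3a was at 18.3 CPM in insulin, 45.5 in Gcg and 113 in Sst cells, and in Tg7 at 104, 37.9 and 79.1, so that the ratio of insulin to Gcg cells was 0.402 in Wild-type and 2.74 in Tg7. Kcnj3 was at 0.586, 21.4 and 8.66 CPM in the Wild-type classes in the same order and at 21.6, 27.0 and 31.6 in Tg7. Scn9a had insulin to Gcg ratios of 0.819 in Wild-type and 4.29 in Tg7, and Kcnj11 of 1.25 and 0.421. For Scn3a the order of insulin and Gcg cells thus differed between the libraries, with intervals that do not overlap in either. For Scn9a and Kcnj11 the Wild-type intervals of insulin and Gcg cells overlap, while the Tg7 ones do not. Per 1000000 UMIs of all genes, Kcnj11 was lower in insulin than in Gcg cells in both libraries, at 14.8 and 32.5 in Tg7 and 17.7 and 25.2 in Wild-type, while Scn3a and Scn9a kept their orders. For Kcnj3 insulin cells stayed below Gcg cells in both libraries, with overlapping intervals in Tg7. Sst levels rest on few UMIs, and their intervals are wide.

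Other members differed between insulin and Gcg cells in like manner in both libraries. Kcnh1, which encodes Kv10.1, was at 18.8 and 19.6 CPM in the insulin cells of Tg7 and Wild-type and at 1.28 and 1.34 in the Gcg cells. Trpc4 has its insulin levels above and 0 UMIs in Gcg cells, and Kcnk13 was at 5.73 and 4.22 CPM in insulin cells with 1 UMI and 0 UMIs in Gcg cells. For these 3 genes the intervals of insulin and Gcg cells do not overlap in either library. Kcnf1, with 1 UMI in Tg7 and 0 in Wild-type Gcg cells, and Kcnip2, with 0 and 1, had intervals that overlap in 1 library each. Kcnip3 was at 32.8 and 30.1 CPM in Gcg cells, where insulin cells had 1.74 CPM and 0 UMIs, and Kcnc4 at 24.4 and 15.4 CPM, where insulin cells had 3.30 and 0.352. All 7 had 0 UMIs in Sst cells, but 1 UMI there is worth 15.8 CPM in Tg7 and 8.66 CPM in Wild-type, so that class is too shallow for a comparison with them. In Ppy cells Kcnip3 was at 59.4 and 40.8 CPM. Kcnk3 was lower in insulin cells than in all other classes of both libraries. The Gcg transcript in Tg7 insulin cells stood at 0.897% of its level in Tg7 Gcg cells, and in Wild-type at 0.219%. Carried over at that rate from Gcg cells, Kcnj3 would reach 0.242 CPM in Tg7 insulin cells where 21.6 was measured, Scn3a 0.340 where 104 was measured, Kcnc4 0.219 where 3.30 was measured, Kcnip3 0.294 where 1.74 was measured, and Kcnk3 2.64 where 13.1 was measured. The rate covers Gcg only, in cells whose Gcg content the purity limit had already capped. Ppy stood at 0.290% and 0.0213% of UMIs in Tg7 and Wild-type insulin cells, and its carry-over was not computed. The part of mixed cells in these levels was not tested.

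**Figure D4:**
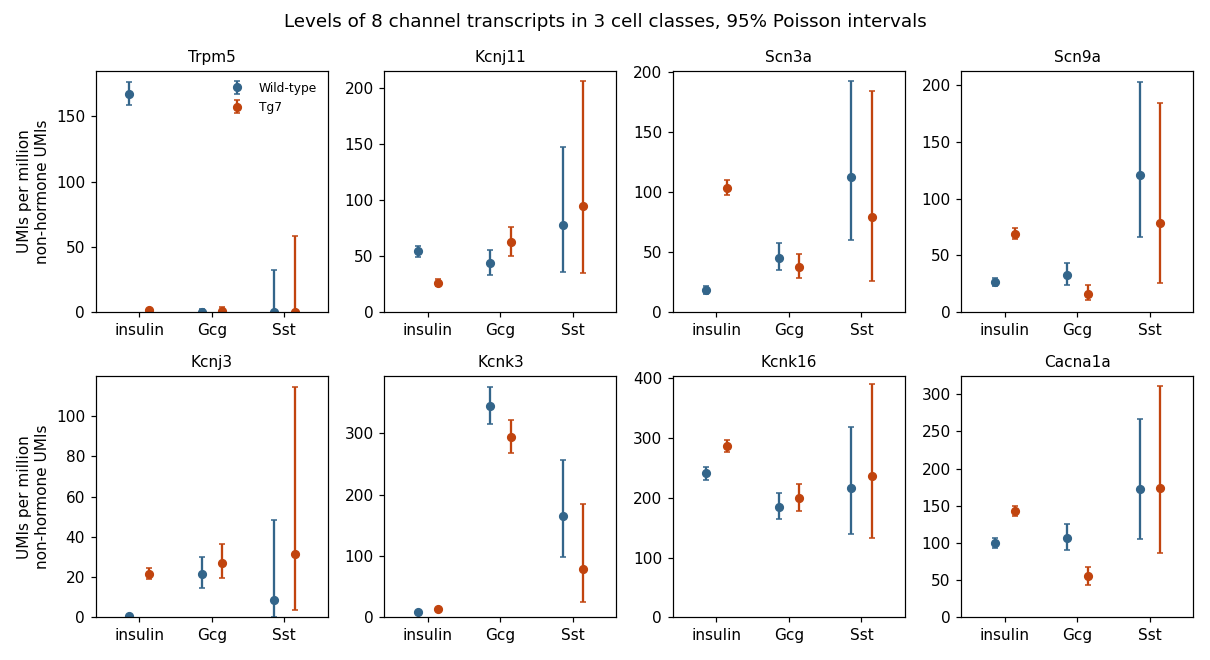
Level of 8 channel genes in counts per 1000000 non-hormone UMIs (CPM) in insulin, Gcg and Sst cells of the Wild-type (blue) and Tg7 (orange) library, with 95% Poisson intervals and a separate vertical scale for each gene. Trpm5 stands at 167 in Wild-type insulin cells and at 1.74 in Tg7 insulin cells, while Scn3a and Kcnj3 in insulin cells are higher in Tg7.

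In Sst cells, with 13 Tg7 and 18 Wild-type cells, 7 members had at least 20 UMIs. None was 2-fold higher, where 3.57% of 1654 genes were, and 2 were 2-fold lower, where 5.86% of genes were. These were Trpc1, with 1 UMI in Tg7 and 26 in Wild-type (0.0703, 0.00171 to 0.428), and Kcnk3, with 5 and 19 UMIs (0.481, 0.140 to 1.33). The member with the most UMIs was the imprinted non-coding RNA Kcnq1ot1, whose split from Kcnq1 is uncertain as above, with 23 and 46 UMIs (0.913, 0.528 to 1.54). In insulin cells Kcnq1ot1 was at 347 and 295 CPM (1.18, 1.12 to 1.24). The Ppy class held 9 Wild-type cells and was not compared.

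Insulin cells of each library were also divided into terciles by the Ins1 share of their insulin UMIs, which had a median of 1.75%, 5.17% and 10.7% in the Tg7 terciles and of 26.6%, 30.1% and 33.1% in the Wild-type terciles. Within Tg7 none of 66 members was at least 2-fold higher in the lowest than in the highest tercile, where 0.574% of all genes were, and 3 were at least 2-fold lower (4.55%), among them Kcnk13 and Cacng2, where 1.139% of all genes were. Scn3a was at 107, 105 and 99.9 CPM from the lowest to the highest tercile of Tg7 and at 24.2, 16.9 and 14.1 in Wild-type, so every Tg7 tercile lay above every Wild-type tercile. Kcnj11 in Tg7 was at 32.6, 28.5 and 18.0 CPM (lowest over highest tercile 1.82, 1.33 to 2.499), and in Wild-type at 57.4, 56.4 and 48.8 (1.18, 0.927 to 1.49). Trpm5 in Wild-type was at 120, 177 and 202 CPM (0.592, 0.514 to 0.680), and in Tg7 the terciles held 4, 7 and 9 UMIs. Within Wild-type 2 of 47 members were at least 2-fold higher in the lowest tercile (4.26%, against 1.45% of all genes), namely Kcnk3 with 49 and 12 UMIs (4.21, 2.21 to 8.69) and Kcnmb1 with 24 and 8 (3.09, 1.34 to 7.96), and none was lower, where 0.884% of all genes were. The cells of 1 library are not replicates, and the terciles differ in depth, with medians of 26385.5 to 36673 UMIs in Tg7 and 40976 to 54150.5 UMIs in Wild-type.

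**Figure D5:**
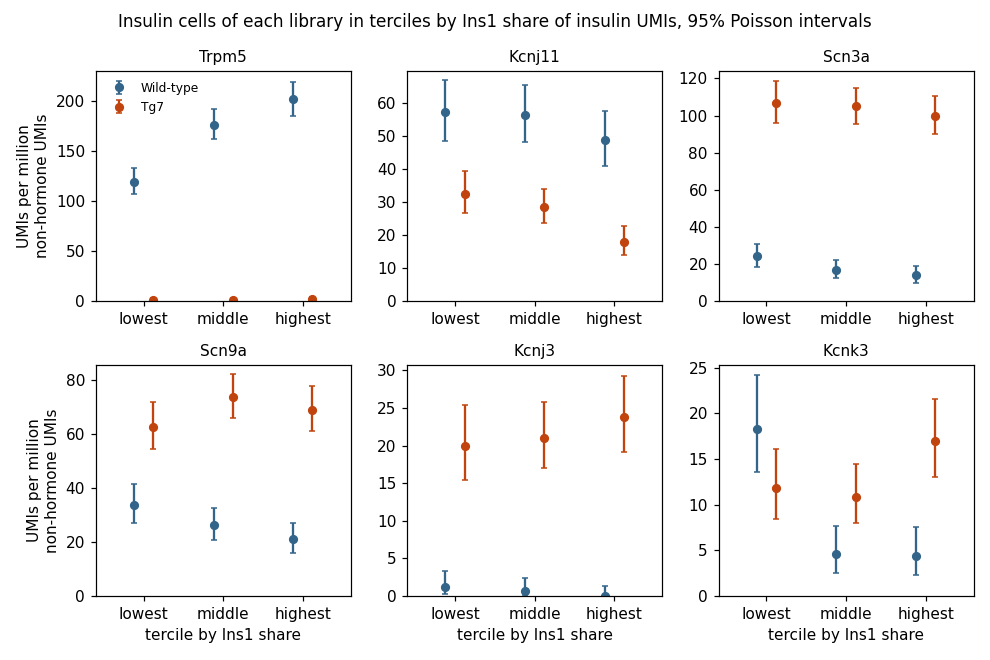
Level of 6 channel genes in counts per 1000000 non-hormone UMIs (CPM) in the lowest, middle and highest tercile of insulin cells by Ins1 share of insulin UMIs, for Wild-type (blue) and Tg7 (orange), with 95% Poisson intervals and a separate vertical scale for each gene. Wild-type Trpm5 goes from 120 in the lowest to 202 in the highest tercile, and Tg7 Kcnj11 from 32.6 to 18.0.

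Of 61 other ion transport and channel partner genes, 52 were measured in insulin cells, of which 12 (23.1%) were at least 2-fold higher in Tg7, where 9.71% of all genes were, and 4 (7.69%) at least 2-fold lower, where 5.83% were, with a median log2 ratio of 0.14. In Gcg cells 39 were measured, 0 were higher and 3 (7.69%) lower, where 1.85% and 3.95% of all genes were. Among the highest in insulin cells were Fgf14, an intracellular partner of sodium channels (137 and 7 UMIs, 14.5, 6.85 to 36.7) and Ncs1, a neuronal calcium sensor (106 and 8, 9.82, 4.80 to 23.3). The lowest were Atp2a2, the SERCA2 pump that fills the endoplasmic reticulum with calcium (410 and 1133 CPM, 0.362, 0.349 to 0.375), Dpp10, which associates with Kv4 channels (35 and 66 UMIs, 0.393, 0.253 to 0.601), and Gem, a small GTPase that binds calcium channel β subunits (49.1 and 122 CPM, 0.401, 0.361 to 0.445). On the all-UMI scale insulin ratios are 1.73 times as large. None of the 4 lower partners would then be past 2-fold, and more than 12 would be at least 2-fold higher. In Gcg cells Gem was also at least 2-fold lower (0.4997, 0.408 to 0.610), while Dpp10 (0.585, 0.448 to 0.759) and Atp2a2 (0.882, 0.736 to 1.06) were not.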

How the data were processed

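Dissociated islet cells of 1 Tg7 and 1 Wild-type library were measured by 10x Genomics single-cell RNA-seq. UMI counts for every gene in every barcode were deposited by the authors, who used bcl2fastq 2.17.1.14 for demultiplexing and Cell Ranger 3.0.2 with mm10, and per the labels STAR as the aligner. Gene symbols came from the deposited feature lists.

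Barcodes under 1000 UMIs or over 20% mitochondrial UMIs were removed, as were doublets found by Scrublet (scanpy 1.11.5, assumed rate 0.8% per 1000 barcodes), which replaced the caller of the study. Cell classes were rebuilt from hormone shares, so they may not match the study's clusters. For each class and library the counts of a gene were summed over cells and divided by the UMIs of genes other than Ins1, Ins2, Gcg, Sst, Ppy, Pyy and Iapp. Genes with at least 20 UMIs in a class over both libraries were compared by the Tg7 to Wild-type ratio, with an exact 95% interval from the binomial distribution given both counts' sum (scipy 1.17.1), and a ratio of at least 2 or at most 0.5 was called. For a gene at 0 UMIs in 1 library the ratio was computed with 3 UMIs in place of 0 over the class. Its 95% interval used the counts as they were. Shares of cells have exact Clopper-Pearson intervals. Beside a share of 0 the limit of 3 cells is given. With 1 library per genotype there was no test. Poisson counts were simulated for 12458 genes in insulin cells with 200 genes changed by 4-fold. Of the intervals 95.7% held the true ratio, 100% of the genes raised and 99.0% of those lowered were called, and 0.514% of unchanged genes were. The simulated counts held no variation between cells or libraries beyond counting error. These rates thus check the computation only and are not error rates for a comparison of 1 library per genotype.

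The members and gene lists were chosen with earlier results of these data known. Genes named in the text were members known in islet electrical activity whatever their values, the 10 highest and 10 lowest ratios in insulin cells among members with at least 50 UMIs (5 and 5 in Gcg cells, 3 and 3 in Sst cells), members with at least 20 UMIs in 1 library and at most 3 in the other, members enriched in 1 class, members past 2-fold in opposite directions, and Abcc8 with the 3 highest and 3 lowest partners. Other members named were chosen after their values were seen. Some genes that met these rules are not reported here, but counts and sums over genes include them. The 3′ UTR search used the longest UTR of each gene in GENCODE M1 (NCBIM37). The alternatives were scaling to all UMIs, TMM factors (edgeR 4.0.16 in R 4.3.3), the mean of cell shares, other barcode filters, doublets kept, other hormone gates and other UMI minimums.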

Additional observations from a re-analysis of the deposited data

Results flagged for a closer look

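Scn9a was past 2-fold in opposite directions in the 2 main cell classes. It was higher in Tg7 in insulin cells, at 68.9 against 26.8 counts per 1000000 non-hormone UMIs (CPM), and lower in Tg7 in Gcg cells, at 16.1 against 32.8 CPM. Its log2 ratio in insulin cells minus that in Gcg cells was 2.39. The Gcg ratio, 0.490, was 0.441 to 0.599 over 9 alternatives and not past 2-fold in 4 of them, namely TMM factors (0.519), the mean of cell shares (0.581), no barcode filter (0.507) and hormone purity 0.5 (0.599). The difference was not tested, since each genotype is 1 library, and the Gcg value rests on 25 and 49 UMIs.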

How the results depend on the processing

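No paired analysis was possible because each genotype has 1 library. Of the 29 members that were 2-fold higher in Tg7 insulin cells, 23 to 29 were still called under the alternatives other than a minimum of 50 UMIs, which left 18 measured and all 18 called, and of the 9 lower members 8 or 9 were still called, other than 6 on the all-UMI scale and 7 of 7 measured at a minimum of 50 UMIs. The counts moved past 1.5 times as follows. On the all-UMI scale 51 members were higher in insulin cells and their median log2 ratio was 1.31 (all genes 0.769, with 32.3% of genes 2-fold higher). With a minimum of 50 UMIs 18 of 63 were higher, where 7.36% of genes were. In Gcg cells the count of higher members, 1, became 0 on the all-UMI scale, with the mean of cell shares, at hormone purity 0.5 or 0.95 and with a minimum of 50 UMIs. Of all genes 0.605% to 2.68% were higher under these settings. With no UMI minimum the count became 5 of 52, where 4.61% of genes were higher. The count of lower members, 1, became 3 of 35 on the all-UMI scale, where 6.29% of genes were lower. At purity 0.5 it became 2 of 41 (3.29% of genes), and with no minimum 8 of 52 (7.83%). It became 0 with TMM factors, the mean of cell shares or no barcode filter, where 3.12% to 4.76% of genes were lower. In Sst cells the higher count, 0, became 3 of 32 with no minimum, where 10.6% of genes were higher. The lower count, 2, became 1 of 7 with the mean of cell shares (6.95% of genes) and 1 of 2 at purity 0.95 (7.57%). It became 0 of 1 with a minimum of 50 UMIs (2.22%) and 7 of 32 with no minimum (16.3%). Fewer or more genes entering under another minimum account for part of these changes, and the cause of the others was not tested. Kcnk3 turned from a ratio of 1.49 to 0.561 in insulin cells at purity 0.95. An added alternative, chosen after seeing the data, left Trpc4ap out of the Trpc sum and moved its log2 ratio from -0.043 to -0.090. Counts limit the ratios of members with 3 or fewer UMIs in 1 library, and the Sst and Ppy classes hold too few cells for most members.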
